A study of Homo sapiens with 10 samples.

Results

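SPP1, SPON1, SERPINA5, SNCG, SULF1 and APOA1 are 6 of the 12373 genes in a single-cell RNA table of the human ovarian carcinoma line Kuramochi under rising doses of olaparib. They were chosen because they are linked with serous carcinoma and were seen to fall along the escalation in these same data, so the fall is what selected them and carries no test. The question put to the table was at which dose, and in which of the cell states named by the authors, each was lost. The collective name of secreted genes holds for 5 of them. SNCG encodes a cytosolic protein.

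SPP1 encodes osteopontin, a secreted phosphoprotein that binds integrins and CD44 on the cell surface and is found at raised levels in ovarian carcinoma. SPON1 encodes F-spondin, an extracellular matrix protein with thrombospondin repeats. SERPINA5 encodes protein C inhibitor, a secreted inhibitor of serine proteases that is controlled by heparin-like chains. APOA1 encodes apolipoprotein A-I, the main protein of high-density lipoprotein. SULF1 encodes an extracellular sulfatase that removes 6-O-sulfate groups from heparan sulfate and thereby alters how growth factors are held at the cell surface. SNCG encodes gamma-synuclein, a small protein of neurons that is also made by ovarian and breast carcinomas.

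Kuramochi cells are epithelial and carry a BRCA2 mutation, per the labels. BRCA2 serves homologous recombination, and olaparib inhibits PARP enzymes. The treated populations T1, T2.5, T5, T10, T20, T40, T80, T160 and T320 had been exposed to 1, 2.5, 5, 10, 20, 40, 80, 160 and 320 µM olaparib until they were confluent, and C was untreated. All share the line, the mutation and the medium. Each population is 1 inDrop library, in which droplets join a cell with a barcoded bead and transcripts are counted by molecular identifiers (UMIs). They come from 1 serial escalation without a replicate, so a difference between populations is also one between libraries, and no p-value is given. The labels name no batch.

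The libraries held 1976069 (T5) to 9343704 (C) UMIs from 726 (T5) to 2645 (T160) cells, 18209 cells in all, and the median cell had 1145 (T2.5) to 2974 (T80) UMIs. Of the 147456 possible cell barcodes, 970 occurred in at least 2 libraries. Summed over the 45 pairs of libraries, 1058 barcodes were shared, where independent draws would give 1002. Each library lists a gene only if it was found in about 1% of its cells (0.957 to 0.995%). A gene "listed at 0" was therefore below that share and not necessarily absent, and no fold is given against such a value. As to the epithelial label, KRT8 and KRT18 stood at 1027 and 533 CPM in C, EPCAM was listed at 0 there, and CDH1 has no row in the table. KRT8 and KRT18 were at 129 and 92.2 CPM in T160 and at 219 and 153 CPM in T320. These 2 genes share 44.7% and 18.3% of the sequence stretches near their transcript ends with other genes. Whether this sharing altered their levels, and so the epithelial sum, was not tested. The 7 of 8 epithelial markers with a row summed to 324 (T160) to 2121 (T2.5) CPM, with 422 in T320 and 1650 in C, and the 5 serous carcinoma markers to 184 (T80) to 1072 (T1) CPM, with 247 in T320 and 932 in C. Their part in the levels of the 6 genes was not tested.

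The sequences just upstream of the genes are shown as a description. The 6 genes were chosen for their fall, and shared control was not tested. RefSeq (GRCh38.p14) promoter records were at hand for SPP1, SERPINA5 and SNCG. The 250 bases before the start are printed on the gene's strand. On both strands, 6 motifs were searched. The core promoter motifs were the TATA box, with the letters TATAAA, the CCAAT box, with the letters CCAAT, and the GC box, with the letters GGGCGG. The factor motifs were the E-box, with the letters CACGTG, the AP-1 motif, with the letters TGANTCA, and the SOX motif, with the letters ACAAT. Only GGGCGG and ACAAT were found, their matches do not overlap, and capitals mark each match. The SPP1 record covers chr4:87975464-87975713, the SERPINA5 record chr14:94581176-94581425 and the SNCG record chr10:86958349-86958598, all on the plus strand.
SPP1: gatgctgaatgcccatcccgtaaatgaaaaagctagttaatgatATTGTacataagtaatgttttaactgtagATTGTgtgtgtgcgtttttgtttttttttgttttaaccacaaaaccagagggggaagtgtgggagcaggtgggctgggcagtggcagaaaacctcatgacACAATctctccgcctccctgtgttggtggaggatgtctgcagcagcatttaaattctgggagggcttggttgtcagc
SERPINA5: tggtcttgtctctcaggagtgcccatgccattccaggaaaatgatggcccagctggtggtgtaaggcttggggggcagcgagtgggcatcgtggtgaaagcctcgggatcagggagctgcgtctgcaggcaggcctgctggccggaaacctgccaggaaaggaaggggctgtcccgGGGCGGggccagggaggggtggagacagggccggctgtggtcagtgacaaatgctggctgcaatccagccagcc
SNCG: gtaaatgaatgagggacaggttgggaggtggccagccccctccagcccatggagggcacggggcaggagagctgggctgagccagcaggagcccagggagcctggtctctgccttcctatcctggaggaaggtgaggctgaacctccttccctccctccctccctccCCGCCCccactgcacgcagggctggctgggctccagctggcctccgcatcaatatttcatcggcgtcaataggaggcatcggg
The SPP1 stretch holds 3 SOX matches, at 206 and 177 bases before the start on the minus strand and at 77 bases on the plus strand. SERPINA5 has 1 GC box 74 bases before its start, and SNCG has 1 GC box on the minus strand 83 bases before its start. No motif of the 6 was found in all of these stretches. Over all 35116 promoters of this length, the SOX motif occurred in 24.6%, the GC box in 42.6%, the CCAAT box in 32.0%, the TATA box in 10.7%, the AP-1 motif in 6.57% and the E-box in 6.35%. Of their bases, 44.8% in SPP1, 64.4% in SERPINA5 and 65.2% in SNCG were G or C, and the median promoter had 58%.

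The genes lie apart in the genome (GRCh38, GENCODE 29), and the 2 annotations differ in some starts, so that the SPP1 promoter record runs into the GENCODE span and the SERPINA5 record lies inside it. SPP1 spans chr4:87975650-87983426, SPON1 chr11:13962689-14267884, SERPINA5 chr14:94561442-94593120, SNCG chr10:86958618-86963260 and APOA1 chr11:116835751-116837950, the last on the minus strand. SULF1 lies on chromosome 8. SNCG overlaps MMRN2 on the opposite strand, and MMRN2 was found at 6.53 CPM in C and listed at 0 in the 9 treated populations. The other overlapping genes, among them SERPINA4 and antisense genes of SPON1 and APOA1, have no row in the table. None of the 6 genes shares a 31-base stretch of its last 500 transcript bases with another gene.

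The 6 genes were lost at different doses. With loss taken as a level that stays under 25% of that in C, SERPINA5 was lost from T1, SPON1 and APOA1 from T10, SPP1 and SNCG from T20, and SULF1 from T160. In T320 only SPP1 and SPON1 were still listed. Differences in the text are of log2(CPM + 10), where CPM is counts (UMIs) scaled to the library total. A gene is called lower or higher when it moved by at least 1 on that scale, and it counts as measured with at least 100 UMIs in all and 50 CPM in 1 of both populations. All 6 genes were lower by at least 1 in T320 than in C. All but APOA1, 5 of them, were measured, where 11.6% of the 4617 measured genes were lower. The same 5 were lower in T80 than in C, against a background of 13% of 4206 genes. These contrasts chose the genes, so nothing is read from those shares. The median measured gene stood at a difference of 0.12 in T320 and of -0.13 in T80 from C.

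**Figure D1:**
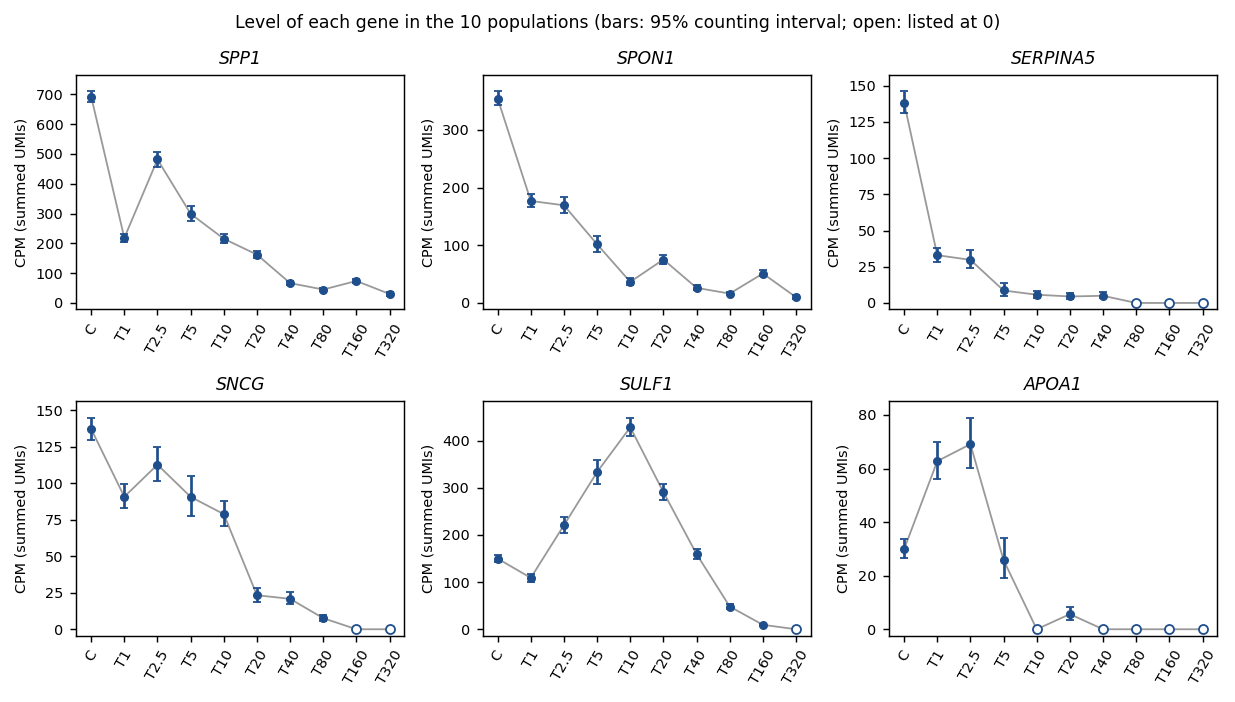
Level of each gene (y axis, CPM of the summed UMIs, a linear scale of its own in each panel) in the untreated population and the 9 olaparib populations (x axis, by rising dose). Points are single libraries, bars are exact 95% Poisson intervals and open circles are values listed at 0. SERPINA5 drops at the first dose, SNCG between T10 and T20, and SULF1 peaks at 428 CPM in T10 before it falls.

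SPP1, which encodes osteopontin, was found in most C cells and few T320 cells. Its level was 693 CPM for C, 218 for T1, 481 for T2.5, 299 for T5, 215 for T10, 162 for T20, 66.6 for T40, 45.1 for T80, 73.8 for T160 and 30.1 for T320. C was thus highest, T2.5 second, and all populations from T40 on lay at or under 73.8 CPM. The T320 level was 23.0 times lower than that of C (95% interval 18.6 to 28.9). All intervals given here are exact and cover counting error only, and since cells differ by more than counting they are too narrow. The fall was not steady. T2.5 was above T1, 481 against 218 CPM. T160 was 1.64-fold above T80 (1.43 to 1.88), a difference of 0.61 that stays under the threshold. In cells to which the authors gave a state, SPP1 was at 39.4 CPM in T80 and 91.4 in T160. In the other cells it was at 49.2 and 51.3 CPM. With TMM scaling the 2 levels were 49.2 and 66.3 CPM. T1 and T10 lay within counting error of each other, as did T160 and T40. A single cell held 39 of the SPP1 UMIs of T80, and without it that level was 39.9 CPM.

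SPON1 was at 354 CPM for C, 177 for T1, 169 for T2.5, 102 for T5, 36.5 for T10, 75.2 for T20, 26.1 for T40, 16.2 for T80, 51.0 for T160 and 9.91 for T320. It was 35.8 times lower in T320 than in C (24.7 to 53.9). T1 and T2.5 lay within counting error of each other. As with SPP1, the T160 level exceeded that of T80, here 3.15-fold (2.56 to 3.89). SPON1 was the only one of the 6 genes called higher in T160 than in T80, where 4.67% of 4284 genes were. T320 then lay below T160 for both genes, 30.1 against 73.8 CPM for SPP1 and 9.91 against 51.0 CPM for SPON1. The T20 level also lay above that of T10, 75.2 against 36.5 CPM.

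SERPINA5 was under the 25% line from T1. It stood at 138 CPM for C, 33.0 for T1, 29.8 for T2.5, 8.60 for T5, 5.69 for T10, 4.47 for T20 and 4.95 for T40, and it was listed at 0 in T80, T160 and T320. Between T1 and C the level was 4.19 times lower (3.58 to 4.94), an interval that holds the 4 times of the 25% line. In listed cells only, SERPINA5 stayed under that line from 5 µM. SERPINA5 and SPP1 were the 2 of the 6 genes called lower at this first step, where 4.83% of 4186 genes were. T1 and T2.5 lay within counting error of each other. So did the neighbouring levels among T5, T10, T40 and T20.

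APOA1 did not fall at first. Its level was 29.9 CPM for C, 62.8 for T1, 69.1 for T2.5 and 25.8 for T5. It was listed at 0 in T10, found at 5.64 CPM in T20 and listed at 0 in T40, T80, T160 and T320. T1 stood 2.10-fold above C (1.79 to 2.47), a difference of 0.87 on the log2 scale that stays under the threshold. T2.5 and T1 lay within counting error of each other, and so did C and T5.

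SULF1 was higher at middle doses than in C before it was lost. It was at 150 CPM for C, 109 for T1, 221 for T2.5, 333 for T5, 428 for T10, 291 for T20, 159 for T40, 48.1 for T80 and 9.44 for T160, and it was listed at 0 in T320. T5 and T10 were called higher than C for SULF1, as were 7.87% of 4219 and 13% of 4461 genes. T40 and C lay within counting error of each other. The drop from there was steep, since T80 was 3.31 times lower than T40 (2.92 to 3.76) and T160 was 5.09 times lower than T80 (3.95 to 6.66).

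Markers of fibroblasts also varied over the doses. The 4 of 7 listed fibroblast markers that have a row (COL1A1, COL3A1, PDGFRA and PDGFRB) summed to 25.3 CPM for C, 423 for T1, 996 for T2.5, 2177 for T5, 1601 for T10, 333 for T20, 259 for T40, 114 for T80, 13.9 for T160 and 0 for T320. COL1A2 and the defining markers DCN and LUM have no row in the table. Of the blood markers only CD68 has a row, at no more than 43.9 CPM (T320). The 3 endothelial markers with a row summed to at most 14.3 CPM (C). In T1 the fibroblast sum was above that in C while SULF1 was below, and the sum was highest in T5 and SULF1 in T10. Of the markers, COL3A1 was highest in T5 (1950 CPM) and COL1A1 in T10 (664 CPM). From T10 on, both the sum and SULF1 fell at each step. The part of these markers in the SULF1 levels was not tested.

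SNCG held on longer than SERPINA5 and was then lost in 2 steps. It stood at 137 CPM for C, 90.7 for T1, 113 for T2.5, 90.6 for T5, 78.8 for T10, 23.3 for T20, 20.8 for T40 and 7.58 for T80, and it was listed at 0 in T160 and T320. The levels in T1, T5 and T10 followed each other within counting error, as did those in T20 and T40. T20 was 3.38 times lower than T10 (2.70 to 4.28) and T80 was 2.75 times lower than T40 (1.97 to 3.86).

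Fewer cells carried the transcripts in T320 than in C. After each cell was thinned to 500 UMIs, a SPP1 UMI was expected in 24.9% of C cells and in 1.60% of T320 cells. Before thinning these shares were 4.95% of 1334 cells in T320 and 66.5% of 1845 cells in C. The UMIs per positive cell were 1.29 in T320 and 5.28 in C. For SPON1 the thinned share was 0.539% in T320 and 13.6% in C, with 1.17 and 3.35 UMIs per positive cell. SULF1 had its highest thinned share in T10, 15.7% of cells, against 6.40% in C, while its UMIs per positive cell were 2.39 in T10 and 2.15 in C. UMIs per positive cell were not thinned, and the median cell had 1852 UMIs in T320 and 2247 in C, with means of 2119 and 5064. The line holds no cell type that should lack these genes, so the share that free RNA gives was not measured.

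**Figure D2:**
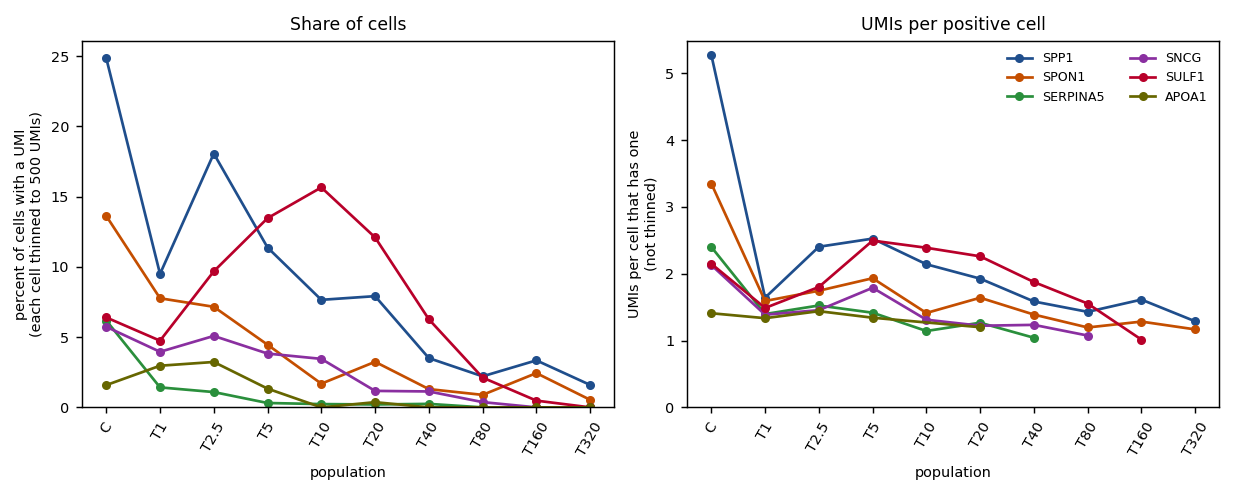
Left, percent of cells with at least 1 UMI of each gene after thinning every cell to 500 UMIs. Right, mean UMIs of the gene per cell that has one, not thinned, in both panels by population (x axis, rising dose). SPP1 is at 1.60% of cells and 1.29 UMIs in T320 and at 24.9% and 5.28 in C, and SULF1 peaks at 15.7% of cells in T10.

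Counted per cell, none of the 6 genes was found in 93.6% of T320 cells and in 16.6% of C cells. In C, 42.8% of cells had at least 3 of them and 36 cells had all 6. Only SPP1 and SPON1 are listed in T320, so UMIs of the other genes could not be counted there, which also bears on the 93.6%. These cells were not thinned. In C the pairs of genes met in the same cell about as often as the product of their shares within 10 bins of depth, with a ratio of 1.03 in the median of 15 pairs (0.955 to 1.23). In T1 the median ratio was 1.14 and in T2.5 it was 1.07, and the pair SPON1 and SERPINA5 had the highest, 1.71 in T2.5.

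Levels also differed between cell states within 1 library. In their metadata table the authors list 8240 of the 18209 cells, each with a state named C or S1 to S5. C, T1, T160 and T320 hold 1 state each (C, S1, S5 and S5), and the 6 populations between hold 2 or 3, which can be compared within 1 library. The states were made from these same cells, so the contrasts are descriptions.

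**Figure D3:**
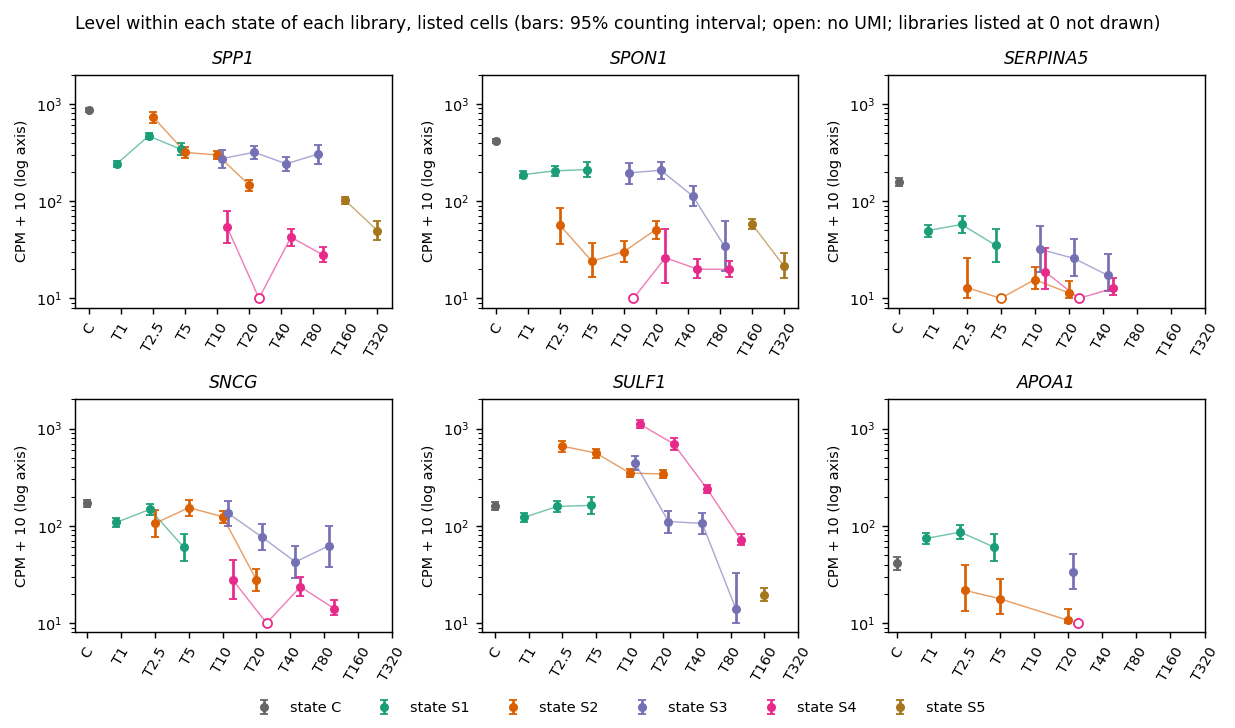
Level of each gene (y axis, CPM + 10, log scale) in the listed cells of each state within each library (x axis, rising dose; colours, states). Bars are exact 95% Poisson intervals, open circles are states without a UMI, and libraries where the gene was listed at 0 are not drawn. SPP1 lies at no more than 44.2 CPM in S4 and at 232 to 308 CPM in S3 (139 CPM in T80 without 1 cell), and SULF1 is highest in S4 in each library that holds it.

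SPP1 was lower in S4 than in S3 in each of the 4 libraries that hold both. In S2 it was at 715 CPM for T2.5, 306 for T5, 288 for T10 and 136 for T20, where T20 was 2.13 times lower than T10 (1.79 to 2.53). Within T10 it was at 44.2 CPM in S4, 263 in S3 and 288 in S2. Within T20 no SPP1 UMI was found in the 74 S4 cells, against 308 CPM in S3 and 136 in S2. With a floor of 3 counts, S4 was at least 25.4 times lower than S3. Within T40 the level was 32.5 CPM in S4 and 232 in S3, 7.13 times lower (5.23 to 9.82). Within T80 it was 18.0 CPM in S4 and 294 in S3, 16.4 times lower (11.3 to 23.8), but 1 cell gave 39 of the 73 UMIs in S3 and without it S3 was at 139 CPM. Over the doses the S3 level was 263 CPM for T10, 308 for T20, 232 for T40 and 294 for T80, or 139 there without that cell, and T40 was 1.33 times lower than T20 (1.05 to 1.69). S3 made up 24.1% of the listed T40 cells and held 67.4% of their SPP1 UMIs. In T80 it made up 7.91% of cells and held 57.9% of UMIs. That share is 73 of 126 UMIs and includes the 39 of that 1 cell. S5 cells were at 91.4 CPM in T160, 5.09-fold above the S4 cells of T80 (3.81 to 6.91), and at 39.8 CPM in T320.

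SPON1 was low in S2 and in S4 and higher in S1 and, up to T40, in S3. In S1 it stood at 177, 195 and 200 CPM in T1, T2.5 and T5. Within T2.5 it was at 46.5 CPM in S2 and 195 in S1, 4.18 times lower (2.53 to 7.42), and within T5 at 14.0 CPM in S2 and 200 in S1, 14.3 times lower (7.25 to 32.0). Within T10 it was found again in S3, at 185 CPM against 20.2 in S2, 9.16-fold (5.78 to 14.8), and within T20 it was at 197 CPM in S3 and 40.9 in S2. No SPON1 UMI was found in the 196 S4 cells of T10, at least 27.9 times lower than in S3. In S3 the level was lower later, 103 CPM in T40 and 24.2 in T80, the last from 6 UMIs. Within T40 it was at 9.96 CPM in S4, 10.4 times lower than in S3 (6.07 to 18.4). Within T80 it was at 9.84 CPM in S4, 2.46 times lower than in S3 with an interval that holds 1 (0.835 to 6.03).

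SERPINA5 and APOA1 lay mostly in S1 where a library held both S1 and S2. Within T2.5, S2 held 19.4% of the listed UMIs of all genes but 1 of the 69 SERPINA5 UMIs and 4 of the 113 APOA1 UMIs. The S2 level of APOA1 was 11.6 CPM against 76.1 in S1, 6.54 times lower (2.48 to 24.4). Within T5 none of the 14 SERPINA5 UMIs lay in S2, and APOA1 was at 7.81 CPM in S2 and 50.1 in S1. Of the 13 APOA1 UMIs listed in T20, 12 lay in S3. SERPINA5 in T10 and T20 rested on 19 and 10 UMIs.

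SNCG did not follow SPON1. Within T2.5 it was at 96.0 CPM in S2 and 137 in S1, an interval of the ratio (0.467 to 1.01) that holds 1. Within T5 it was 2.87-fold higher in S2 than in S1, 144 against 50.1 CPM (1.86 to 4.55). Its fall between T10 and T20 took place within S2, with 17.7 CPM in T20 and 114 in T10, 6.44 times lower (4.24 to 10.2). In S3 over the same step it was 1.87 times lower (1.15 to 3.04). In S4 it was at 17.7 CPM against 125 in S3 within T10, and at 4.07 CPM against 52.4 in S3 within T80.

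SULF1 ran the other way. Within T2.5 it was at 649 CPM in S2 and 148 in S1, 4.38-fold higher (3.62 to 5.32), and within T5 at 550 CPM in S2 and 152 in S1. In S4 it was higher still, 1100 CPM in T10 against 436 in S3 and 338 in S2. S4 also exceeded S3 within T20 (687 against 101 CPM), T40 (228 against 95.9 CPM) and T80 (62.1 against 4.03 CPM, the last 1 UMI). Within S4, SULF1 was 17.7 times lower in T80 than in T10 (14.9 to 21.1), and within S3, from 1 UMI in T80, it was 108 times lower (19.1 to 4295). The 4 fibroblast markers summed to 3118 CPM in S2 and 669 in S1 of T2.5, to 3218 and 906 CPM in the same states of T5, to 3687 CPM in S4, 473 in S3 and 1761 in S2 of T10, and to 201 CPM in S4 and 44.4 in S3 of T80. In T10 the marker sum was thus lower in S3 than in S2, while SULF1 was at 436 CPM in S3 and 338 in S2. In T20 the sum was 1010 CPM in S4, 422.5 in S2 and 82.9 in S3. SULF1 was there at 687 CPM in S4, 331 in S2 and 101 in S3. In T40 the sum was 497 CPM in S4 and 116 in S3, so in both libraries it had the order of SULF1. The part of the markers was not tested.

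**Figure D4:**
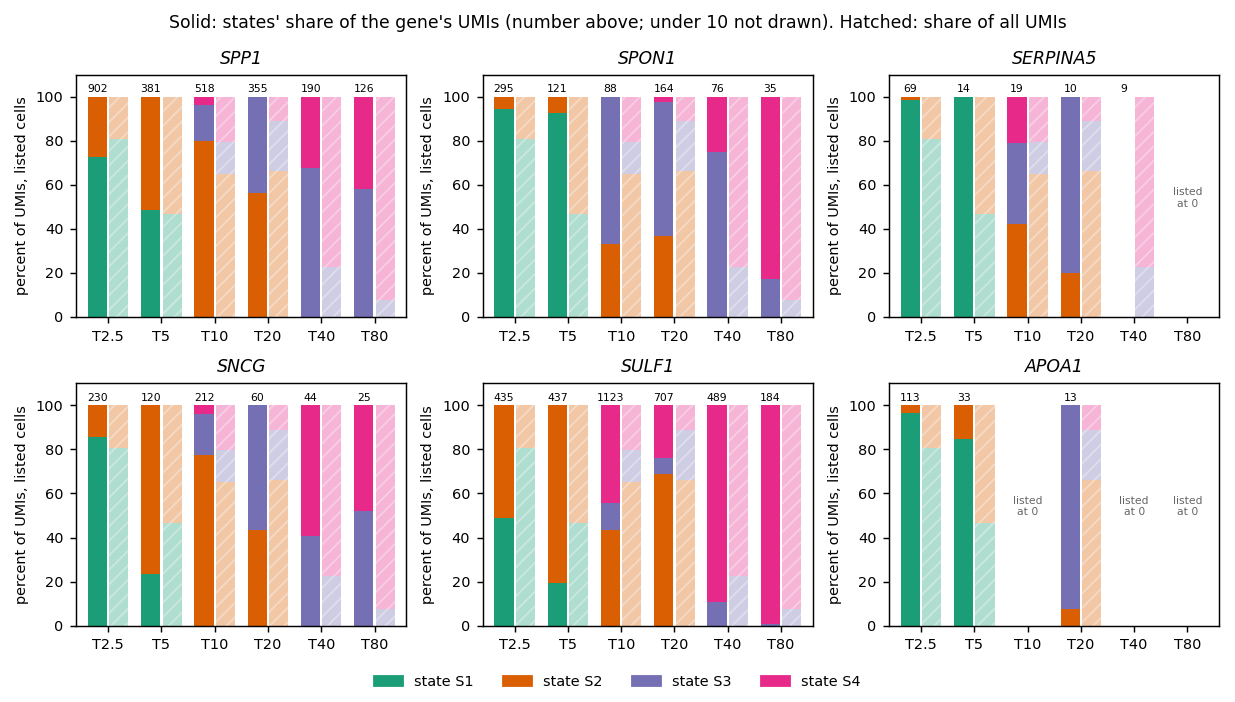
Share of each gene's UMIs (solid bars) and of all UMIs (hatched bars) that lie in each state (colours) among the listed cells of the 6 libraries with more than 1 state (x axis). The number above is the gene's UMIs, and under 10 UMIs the solid bar is left out. S3 holds 67.4% of SPP1 UMIs but 22.4% of all UMIs in T40.

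By the same threshold, SPON1 and APOA1 were lower and SULF1 higher in S2 than in S1 within T2.5, among 5 genes measured, where 3.3% and 2.93% of 4057 genes were. Within T5 the same held with SNCG also higher, where 3.55% of 4165 genes were lower and 3.15% higher. In S3 against S2, SPON1 alone of 4 measured was called within T10, as higher, where 5.05% of genes were. Within T20, SPP1, SPON1 and SNCG were higher and SULF1 lower, where 5.54% and 5.72% of genes were. The epithelial sum by state was 919 CPM in S4, 3067 in S3 and 632 in S2 of T10, 518 in S4 and 2269 in S3 of T40, and 357 in S4 and 2263 in S3 of T80, and the serous sum was 124, 442 and 526 CPM in the same states of T10. Their part was not tested. In S4 against S3, SPP1, SPON1 and SNCG were lower and SULF1 higher within both T10 (8.82% of genes lower, 7.19% higher) and T20 (9.17% lower, 8.74% higher). SPP1 and SPON1 were lower and SULF1 higher within T40 (5.14% and 4.48%), and SPP1 and SNCG lower and SULF1 higher within T80 (8.37% and 5.97%). SULF1 thus went against SPP1 in each comparison of S4 with S3.

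How the 8240 cells were chosen was not spelled out in the sources used here. The name of the metadata table holds the term g1, which may stand for the G1 phase of the cell cycle, and this was not tested. In C the listed cells were deep, with a median of 5946 UMIs against 2247 over all C cells. Of 49 ratios of listed over other cells, 27 had an interval that held 1, 21 were higher in listed cells and 1 was lower, and they ran from 0.545 (SPON1 in T80) to 3.45. SPP1 was at 855 CPM in listed and 620 in other C cells, and at 39.8 CPM in listed and 22.9 in other T320 cells.

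Partners of the 6 genes moved in both directions. Of 9 osteopontin receptors and proteases in the table, 5 were measured in T320 against C, with 1 higher, 2 lower and a median difference of -0.53, where 15.4% of all measured genes were higher and 11.6% lower. CD44, the osteopontin and hyaluronan receptor, was at 403 CPM in T320 and 24.3 in C, 16.6-fold higher (14.4 to 19.2). The integrin subunits ITGAV and ITGB5, which pair as a receptor for osteopontin, were lower, at 124 against 266 CPM and at 52.0 against 171 CPM. PLAU, the urokinase protease, was at 257 CPM in T320 and 136 in C, under the threshold. In T80 against C, 1 of 5 was higher and 1 lower, where 9.25% of genes were higher and 13% lower, and CD44 was at 218 CPM.

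Of 5 measured genes linked with spondins, 4 were higher and 1 lower in T320 than in C, with a median difference of 1.13, and none of 3 measured was called in T80. Of all measured genes, 15.4% were higher and 11.6% lower in T320, and 9.25% higher and 13% lower in T80. With edgeR's TMM scaling the T320 counts were 416 higher and 846 lower genes, against 712 and 537 here. TMM also moved the median gene from 0.12 to -0.22. The list counts are from scaling to the library total, where APP (1.13) and APLP2 (1.03) lay just past the threshold. These 2 calls thus depend on the scaling. LRP1, an endocytic receptor, was at 109 CPM in T320 and 8.46 in C, and VLDLR, a lipoprotein receptor that binds F-spondin, at 52.4 and 11.5 CPM. APP, the amyloid precursor that F-spondin binds, was at 540 CPM in T320 and 241 in C. MDK, a heparin-binding growth factor, was lower at 117 against 626 CPM. SPON2, the nearest relative, has no row in the table.

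Among serpins and their targets, 2 of 6 measured genes were higher and 2 lower in T320 than in C, with a median difference of 0.90. In T80, 1 of 5 was higher and 2 were lower. The background over all measured genes was 15.4% higher and 11.6% lower in T320, and 9.25% higher and 13% lower in T80. SERPINE2, an inhibitor of thrombin and plasminogen activators, was higher at 199 against 56.5 CPM. SERPINH1, a collagen chaperone rather than an inhibitor, was lower at 137 against 1148 CPM. F3, the coagulation tissue factor, was at 5.31 CPM in T320 and 75.1 in C, and already at 6.93 in T1.

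Of the heparan sulfate genes, 2 of 14 measured were higher and 2 lower in T320 than in C (median difference -0.26), and 0 of 11 higher and 1 lower in T80. Against the background of 15.4% higher and 11.6% lower in T320 the T320 shares are near those of all genes. In T80 the background was 9.25% higher and 13% lower. The core protein SDC3 (27.3 against 98.7 CPM) and the N-sulfating enzyme NDST1 (31.1 against 90.7 CPM) were lower. The core protein GPC1 (54.9 against 20.8 CPM) and the chain-building enzyme EXT2 (66.2 against 26.4 CPM) were higher. SULF2, the relative of SULF1 with the same activity, was at 32.9 CPM in T320 and 8.78 in C, 3.75-fold higher (2.76 to 5.11), below the 50 CPM set for a measured gene.

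Of the apolipoproteins and lipid carriers, 2 of 4 measured were lower and 0 higher in T320 than in C (median difference -0.59), and 1 lower and 1 higher in T80. The background over all measured genes was 11.6% lower and 15.4% higher in T320, and 13% lower and 9.25% higher in T80. APOE was at 69.0 CPM in T320 and 285 in C, with its highest level of 781 CPM in T20, and the secreted chaperone CLU was at 137 and 404 CPM. PLTP, which transfers phospholipids between lipoproteins, was at 502 CPM in T80 and 184 in C, the gene called higher there, and at 231 CPM in T320. In T160, APOE, CLU and the 2 matrix proteins SPP1 and SPON1 were all above their T80 levels, APOE at 407 against 157 CPM and CLU at 330 against 145 CPM.

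The list of other secreted or surface genes of serous carcinoma had 8 of 11 measured genes lower and 1 higher in T320 than in C, with a median difference of -1.31, where the median gene was at 0.12. In T80, 5 of 10 were lower and 1 higher. Of all measured genes, 11.6% were lower and 15.4% higher in T320, and 13% lower and 9.25% higher in T80. The list was written with results of these data known. SPINT2, a membrane protease inhibitor, was at 6.72 CPM in T320 and 186 in C. CD24, a surface glycoprotein, was at 5.31 against 77.7 CPM, and CP, which encodes ceruloplasmin, at 18.1 against 92.9 CPM. MDK belongs here as well. The secretory pathway itself, 38 measured genes of translocation and vesicle transport, had 3 higher and 2 lower in T320 with a median of -0.10, and 1 higher and 2 lower in T80. Each of these counts is a smaller share than that of all genes. SSR4 (224 against 73.5 CPM), COPE (207 against 66.3 CPM) and SEC62 (267 against 113 CPM) were the higher ones in T320, and SPCS2, a signal peptidase subunit, was lower at 49.9 against 191 CPM.

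**Figure D5:**
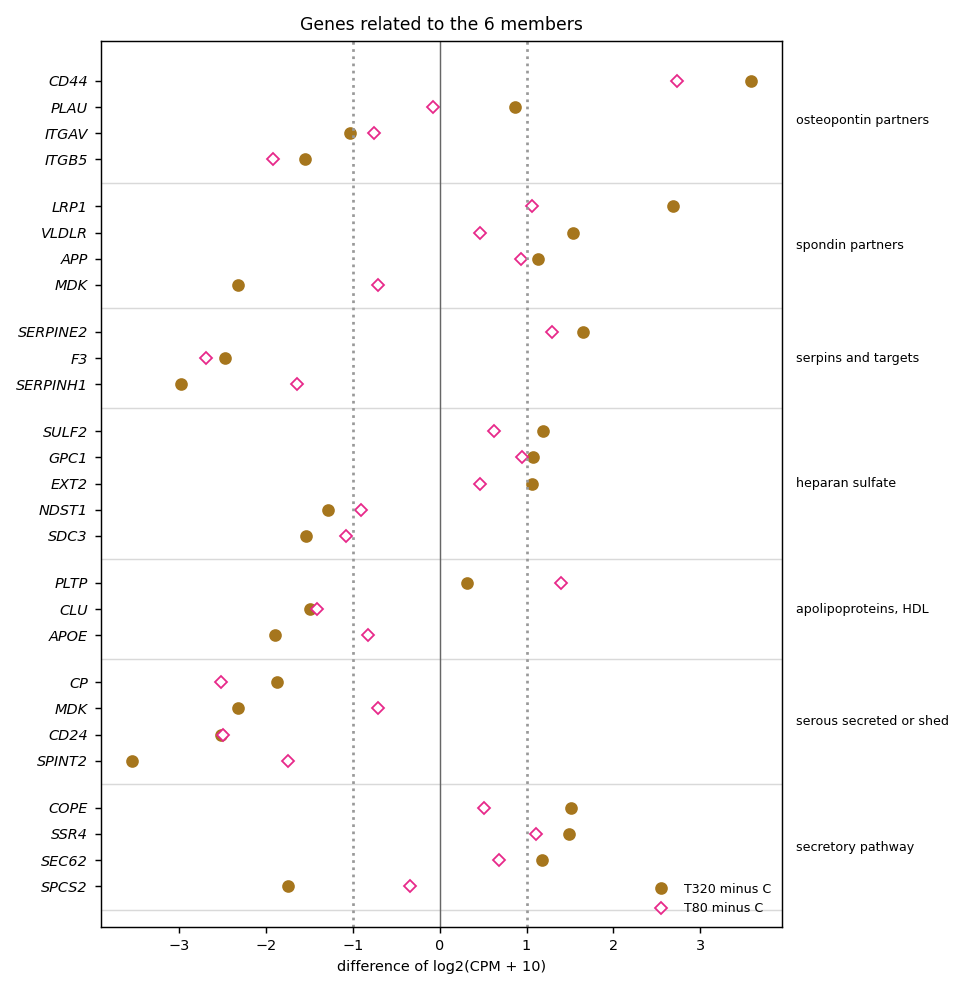
Difference of log2(CPM + 10) (x axis) of T320 from C (filled circles) and of T80 from C (open diamonds) for the genes named in the text of each list (rows, grouped by list; a gene in several lists is repeated). Dotted lines mark -1 and 1. CD44 and LRP1 lie farthest right at T320, and SPINT2 farthest left.

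The genes whose levels were most like those of each of the 6 over the 10 populations were found by Pearson correlation of log2(CPM + 10) among 5514 genes, a description of 10 libraries that share an escalation. For SPP1 they were TXLNA (0.976), COPS7B (0.964) and PEF1 (0.962), and for SPON1 COA7 (0.987), SORBS2 (0.963) and SOX13 (0.963). SERPINA5 was followed by CD47 (0.965), IL32 (0.956) and S100A16 (0.948), and SNCG by SEMA3C (0.988), CAPRIN1 (0.980) and SFT2D2 (0.979). SULF1 had CAPZA2 (0.975), STT3A (0.969) and LSM12 (0.962). APOA1 had SYDE1 (0.966), TSPAN18 (0.959) and MSLN (0.958), which encodes mesothelin. MSLN was at 15.8 CPM in C, 92.5 in T2.5 and listed at 0 in T320. IL32 and STT3A share 14.9% and 28.8% of their last 31-base stretches with other genes. From 35 (SERPINA5) to 88 (SNCG) genes lay over 0.9, and the order depends on the measure. By Spearman correlation of ranks, CD47 came at place 63, IL32 at 247 and SFT2D2 at 169, while PEF1 and COA7 came at place 1. Among the 6 themselves, SPP1 and SNCG had the highest Pearson correlation (0.923), and SERPINA5 and SULF1 the lowest (0.381). By Spearman the highest was SERPINA5 and SNCG (0.966) and the lowest SULF1 and APOA1 (0.265).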

How the data were processed

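The 10 inDrop libraries of the Kuramochi line were used, 1 per population. The table deposited by the authors holds raw UMI counts of 12373 genes in 18209 cells. The metadata table deposited by the authors gives UMI and gene counts, a state, and the mitochondrial share as a fraction, for 8240 cells. Its UMI totals equalled those of the matrix in all 8240, 7322 of which carried the same name and the T40 cells of which were joined by barcode. The submitters' processing notes name Seurat 2.3.2 and hg38 and GRCh38. The aligner, counting tool, annotation, cell filters and state assignment were not given in the sources used here.

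Counts were summed per population or per state and scaled to CPM by the library or state total (1976069 to 9343704 UMIs per library). All cells were kept and no doublet caller was run. Cells had 692 to 17644 UMIs. Intervals are 95%: exact Poisson for levels, exact conditional for ratios, exact binomial for shares. States with at least 50 listed cells in a library were used. A floor of 3 counts was used only for states without a UMI in a library that lists the gene. Thinned shares are hypergeometric expectations at 500 UMIs. No p-values were computed, since no population has a replicate. Gene positions came from GENCODE 29 and sequences from RefSeq tables.

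Members and gene lists were chosen with earlier results of these data known. Named genes were the 6, the 4 measured genes of each list with the largest T320 difference from C, the nearest relative of each of the 6, and the 3 genes most correlated with each. Clone names were passed over. Some genes that this rule selects are not reported here. Gene counts and intervals were run on simulated Poisson counts with known folds, which checks the computation only. The simulated counts hold no spread between cells or libraries and no listing rule, so they cannot show whether the intervals are wide enough here. Alternatives were edgeR 4.0.16 TMM and DESeq2 1.42.0 scaling, other filters, pseudocounts, cell weights and cell sets. Python 3.11.15, numpy 2.4.6, scipy 1.17.1, pandas 2.3.3 and R 4.3.3 were used.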

Additional observations from a re-analysis of the deposited data

Results flagged for a closer look

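SULF1 compared between the same pair of states went opposite ways in 2 libraries: S3 over S2 was 1.29-fold within T10 (436 against 338 CPM, interval 1.06 to 1.56) and 0.304-fold within T20 (101 against 331 CPM, interval 0.223 to 0.406). The difference between the libraries was not tested, and each rests on 1 library. The S2 levels of T20 and T10 were alike (0.979-fold), and the S3 level was 4.33 times lower in T20 than in T10 (3.12 to 6.09).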

How the results depend on the processing

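No paired analysis was possible because each population has 1 library and no replicate number. Of 84 recomputed differences of the 6 genes from C, 0 reversed, 50 stayed within counting error and 34 moved, and under each alternative run all 6 were at least 1 lower in T320 and in T80. The T320 difference of SPP1 ran from -4.48 to -3.84 and that of SPON1 from -5.03 to -3.89. For the genes listed at 0 it is set by the pseudocount, as with SERPINA5 (-7.12 to -3.86). The dose of loss depends on its definition. Under 1/2 of C it was 5 µM for SPP1, 1 µM for SPON1 and 80 µM for SULF1. Under 1/10 of C it was 320 µM for SPP1 and SPON1, 5 µM for SERPINA5, 80 µM for SNCG and 40 µM for APOA1. The APOA1 dose takes values listed at 0 as 0, though the 1% listing rule can hide levels near 1/10 of C for this gene. It was 80 µM for SULF1 under 25% of its highest level, 40 µM for SPP1 with equal weight per cell, and 5 µM for SPON1 and SERPINA5 in listed cells only. TMM and DESeq2 scaling left all 6 doses as they were. Counts over all genes in T320 were 537 lower and 712 higher, 915 and 1268 without a filter on low values, 214 and 162 at 200 CPM, 846 and 416 with TMM, and 790 and 450 with DESeq2 factors. In T80 they were 547 and 389, 783 and 742 without a filter, and 182 and 112 at 200 CPM. The median gene in T320 lay at 0.12, and at -0.22 with TMM and -0.16 with DESeq2 factors. Leaving out the cell with most UMIs of a gene, an alternative chosen after seeing the data, moved 8 of 80 state levels beyond their interval, among them SPP1 in S3 of T80 (139 CPM) and SPP1 in S1 of T5 (268 CPM). Levels listed at 0 are limited by the 1% listing rule, and shallow libraries by counting.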
